A study of Mus musculus with 195 samples.

Results

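Polyadenylated transcripts of histone genes were followed in single mouse embryonic stem cells (ESCs) and neural stem cells (NSCs). The members were chosen by annotation symbol: 70 replication-dependent (RD) genes, whose symbols start with Hist1h, Hist2h, Hist3h or Hist4h, and the 8 variant genes H2afz, H2afv, H2afx, H2afy, H3f3a, H3f3b, H1f0 and H1fx. Of these 78 genes, 49 gave at least 1 molecule in the cells used, among 19287 genes that did so. Hist1h2aj, Hist1h2al and Hist3h2bb-ps, counted among the RD genes by symbol, are annotated as pseudogenes. They had 4, 7 and 1 molecules in the cells used. The RD genes lie mostly in 1 cluster, with 56 on chromosome 13, 10 on chromosome 3, 3 on chromosome 11 and 1 on chromosome 6.

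Each library read the 3′ ends of polyadenylated RNA and counted molecules by their unique barcodes at each polyadenylation site. All cells came from the mouse ES line 46C, which carries a Sox1-GFP reporter, and were sorted as small cells with G0/G1 DNA content. ESC-2i cells grew without serum in 1 µM PD0325901, 3 µM CHIR99021 (inhibitors of MEK and GSK3) and 10 ng/ml LIF. ESC-FCS cells grew in 10% serum with 10 ng/ml LIF, and NSCs were derived from the same ES line by monolayer differentiation and grown with EGF and bFGF. Each population was 1 culture of 48 cells in 2 library batches of 24, of which 33 ESC-2i, 33 ESC-FCS and 41 NSC cells passed the filters. A further 48 ESC-FCS control cells, 1 pool of 48 ESC-FCS cells and 2 pools of 48 ESC-2i cells served as checks.

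Core histones package DNA, and their demand peaks in S phase, when DNA is copied. RD histone messages normally end without a poly(A) tail: a short stem-loop after the stop codon is bound by SLBP, and cleavage just past it, guided by U7 snRNA, makes the mature end. Histone variants such as H2A.Z and H3.3 are made throughout the cell cycle from ordinary polyadenylated messages, and H2AX, the variant phosphorylated at DNA breaks, is known for using both kinds of 3′ end. An assay primed on poly(A) therefore sees variants well and RD messages only when they carry a tail.

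The stem-loop consensus of 16 bases was found after the stop codon in 46 of the 70 RD genes, starting 21 to 58 bases (median 31) past it. It was also present in H2afx, in none of the other 7 variants, and in 0.148% of 21687 other protein-coding genes. Of the 24 RD genes without a match, 13 are annotated only to the stop codon, so the search had no sequence to read there. The pseudogenes Hist1h2aj and Hist1h2al have no annotated stop codon and could not be searched. The windows below show, for the RD genes with the most molecules ending at the stem-loop and for H2afx, 30 bases 5′ to 3′ with the 16 stem-loop bases in capitals (GENCODE M21 transcripts, GRCm38).
Hist1h2ag, chr13:22042474-22042503, minus strand: acaaaGGCTCTTTTCAGAGCCacctaacct
Hist1h2ae, chr13:23570659-23570688, minus strand: acaaaGGCTCTTTTCAGAGCCattcactta
Hist1h2ad, chr13:23574890-23574919, plus strand: acaaaGGCTCTTTTCAGAGCCatccacttc
Hist1h2ab, chr13:23751567-23751596, plus strand: acaaaGGCTCTTTTCAGAGCCacccacatc
Hist1h3c, chr13:23745038-23745067, minus strand: aaaaaGGCTCTTTTAAGAGCCacctaagat
Hist1h4b, chr13:23757361-23757390, plus strand: caaaaGGTCCTTTTCAGGACCactcactga
H2afx, chr9:44335235-44335264, plus strand: acaaaGGCCCTTTTAAGGGCCaccacctcc
The form shown for Hist1h2ag stood in 26 of the 46 RD genes, and that of Hist1h3c in 6.

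The other RD molecules ended mostly at sites further on, before the stem-loop end, or in genes without one. These windows show the last 30 bases up to the most used site of the 4 RD genes with most molecules, with AATAAA or ATTAAA, the hexamers that direct cleavage and polyadenylation, in capitals where one started 10 to 40 bases before the site.
Hist1h4i, chr13:22040640-22040669, minus strand: aggttctgtttacATTAAAagtattctatg
Hist3h2a, chr11:58955579-58955608, plus strand: tatataaatgttctgttacaaggcgattta
Hist1h2bc, chr13:23692445-23692474, plus strand: atatatgatgtatatatAATAAAtgtcatg
Hist1h1c, chr13:23740331-23740360, plus strand: tgtatgcttctAATAAAaagcgtttagttt
Those 4 sites lay 326 bases past the stem-loop in Hist1h4i, 421 bases past it in Hist3h2a and 833 bases past it in Hist1h1c. No stem-loop was found in the annotated Hist1h2bc transcripts, whose site lay 7862 bases past the stop codon, counted along the genome and not along the message.

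The cells used held 368225 molecules on genes in ESC-2i, 151775 in NSC and 226558 in ESC-FCS, at 1077 to 21038 per cell. Levels are given as molecules per 10000 molecules on genes with a 95% Poisson interval, and since each transcript is counted once at its 3′ end, no length correction was needed to compare genes. With 1 culture per population, no test between populations was possible: intervals cover counting error only, and a gene was counted as past the fold when its level differed at least 2-fold, with at least 20 molecules, and both batches of one population lay above both of the other. Of 9 ESC marker genes 7 were at 0 in NSC, which held 2 molecules in all against 1138 in ESC-2i and 591 in ESC-FCS, while 10 NSC markers summed to 54.7 per 10000 in NSC and 1.96 and 1.72 in the 2 ESC populations. Sox2, listed for both cell types, was left out of these sums. It stood at 0.988 per 10000 in NSC, 1.63 in ESC-2i and 2.30 in ESC-FCS. Among the NSC markers, Fabp7 gave 376 of the 830 molecules in NSC, and Pax6 had 0 there and 4 in ESC-FCS. The same cell barcodes, 24 in all, were used in every batch, and batch barcodes separated the 144 main cells. The control cells and pools shared 5 batch barcodes with main cells. Control cells carried those of the ESC-2i cells, and the ESC-2i pools those of the NSC cells. Whether any molecules passed between these libraries was not tested.

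Libraries with the same label disagreed. ESC-FCS control cells differed from the main ESC-FCS cells past the fold in 15% of 4071 genes upward and 8.47% downward. Between populations these shares ran from 7.29% to 19.4% upward and from 13.6% to 22.9% downward. Among the 6 variants with enough molecules, 2 were higher in the control cells (H3f3a and H2afy) and 2 lower (H2afx and H3f3b). The pools differed further, and their RNA was extracted in another way. Each level is therefore set beside the control cells and pools, and the part that culture, batch or library preparation played in any difference was not tested.

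The summed level of RD histones per molecule on genes differed by less than counting error between the 3 populations. ESC-2i cells held 109 RD molecules, 2.96 per 10000 (2.43 to 3.57), ESC-FCS cells 65 molecules, 2.87 (2.21 to 3.66), and NSC cells 43 molecules, 2.83 (2.05 to 3.82). The control cells, at 2.75 (2.11 to 3.52), were in the same range, and the 8 library batches of cells ran from 2.35 to 3.35. The level in NSC was 0.957 times that in ESC-2i (0.656 to 1.37) and 0.987 times that in ESC-FCS (0.656 to 1.47), and ESC-FCS stood at 0.969 times ESC-2i (0.702 to 1.33), and each of the 3 intervals included 1. Per spike-in molecule these did not stay level, with 0.390 for NSC to ESC-FCS and 2.00 for ESC-FCS to ESC-2i. The pools held less, 1.51 (0.993 to 2.19) in ESC-FCS and 0.334 and 0.425 in the 2 ESC-2i pools, where fewer cells with such a molecule and fewer molecules per cell cannot be told apart.

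RD histone molecules were rare in every cell. Of the 33 ESC-2i cells 29 had at least 1, against 26 of 33 ESC-FCS and 24 of 41 NSC cells, with a median of 3, 1 and 1 and at most 8 molecules in a cell. After thinning each cell to 1000 molecules these shares came to 25.2%, 25.3% and 26.3%, beside median depths of 10852, 6368 and 3280 molecules per cell. In RD histones 30.4% of molecules (24.4 to 37.0) were at sites seen by 1 read per molecule in that cell, against 12.3% over all genes and 6.88% (5.91 to 7.96) in the variants. Without such molecules the RD level was 2.33 in ESC-2i, 2.12 in ESC-FCS, with 2.53 in NSC.

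Where the RD molecules ended differed between libraries. Over the cells used, 27 of 217 RD molecules ended 0 to 10 bases past the last base of the stem-loop, the place where RD messages are normally cut. All 27 lay within 5 bases of it, at 0 (4 molecules), 2 (16) or 4 bases (7). The exact base is uncertain by about 2 bases, since the most used site of the control cells lay 2 bases further on than that of the main cells in 532 of 1394 genes. The molecules came from 8 genes in 19 cells, with at most 3 in a cell and 11.5 reads per molecule, near the 12.4 of all genes. Of 6 such sites with at least 2 molecules, 0 had AATAAA or ATTAAA in the 10 to 40 bases before them.

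These stem-loop-end molecules were more frequent in ESC-FCS than in ESC-2i and were not detected in NSC. ESC-FCS cells held 18, which was 27.7% of their RD molecules (exact binomial interval 17.3 to 40.2), and ESC-2i cells 9, or 8.26% (3.85 to 15.1). NSC cells held 0 of 43, with an upper limit of 8.22%, and the ratio of NSC to ESC-2i in level was 0 with an upper limit of 1.23, so these 2 could not be told apart at this depth. The level was 0.794 per 10000 in ESC-FCS and 0.244 in ESC-2i, a ratio of 3.25 (1.39 to 8.21), and 0 in NSC, with an upper limit of 0.243. Against ESC-FCS the ratio of NSC had an upper limit of 0.340. Both batches of ESC-FCS, at 0.845 (0.422 to 1.51) and 0.727 (0.292 to 1.497), lay above both of ESC-2i, at 0.229 (0.0625 to 0.587) and 0.258 (0.0837 to 0.602), but single batches had overlapping intervals.

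The control cells and pools had the same order of ESC-FCS above ESC-2i. ESC-FCS control cells held 22 stem-loop-end molecules, 0.976 per 10000 and 35.5% of their RD molecules (23.7 to 48.7). The ESC-FCS pool held 11, 0.614 per 10000 and 40.7% (22.4 to 61.2), and the 2 ESC-2i pools together held 5, 0.0513 per 10000 and 13.5% (4.54 to 28.8). All 3 kinds of ESC-FCS library thus lay above both kinds of ESC-2i library on both scales, though the interval of the ESC-2i pools' share overlapped those of all 3. The grouping by distance was drawn after the sites were seen, so these values are a description. The S phase gene list summed to 43.3 per 10000 in ESC-2i cells, 48.9 in ESC-FCS cells, 17.8 in NSC, 62.3 in the control cells, 76.7 for the pool of ESC-FCS and 69.6 for those of ESC-2i, and its part in the stem-loop-end level was not tested.

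Beyond 500 bases past the stem-loop ESC-FCS was the lowest of the 3 populations, at 0.221 per 10000 (0.0717 to 0.515; 5 molecules). NSC stood at 0.725 (0.362 to 1.30; 11 molecules) and ESC-2i at 0.706 (0.461 to 1.03; 26 molecules), a ratio of 1.03 (0.458 to 2.15). The ESC-FCS level was 0.313 times that of ESC-2i (0.0937 to 0.827), and NSC was 3.28 times ESC-FCS (1.05 to 12.1). Of these 42 molecules 11 were of Hist1h4c, and without that gene the ratio of ESC-FCS to ESC-2i was 0.287 (0.0539 to 0.992), on 3 and 17 molecules. Another 17 were of Hist1h1c, which gave 9 of the 11 in NSC, 7 of the 26 in ESC-2i and 1 of the 5 in ESC-FCS. The NSC level and its ratio to ESC-FCS thus rested mostly on that 1 gene. The other libraries did not share this difference in level beyond counting error. The control cells, at 0.355 (0.153 to 0.699), were 0.502 times the ESC-2i cells (0.197 to 1.14), and the ESC-FCS pool, at 0.279, lay above the ESC-2i pools, at 0.164, with a ratio of 1.70 (0.487 to 4.86). As a share of RD molecules the control cells had 12.9% (5.74 to 23.9), the ESC-FCS pool 18.5% (6.30 to 38.1) and the ESC-2i pools 43.2% (27.1 to 60.5). At 11 to 500 bases past the stem-loop ESC-2i held 31 molecules, NSC 19 and ESC-FCS 17, and the intervals of their levels overlapped, while the control cells were at 0.355 times the ESC-FCS cells (0.114 to 0.943).

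**Figure D1:**
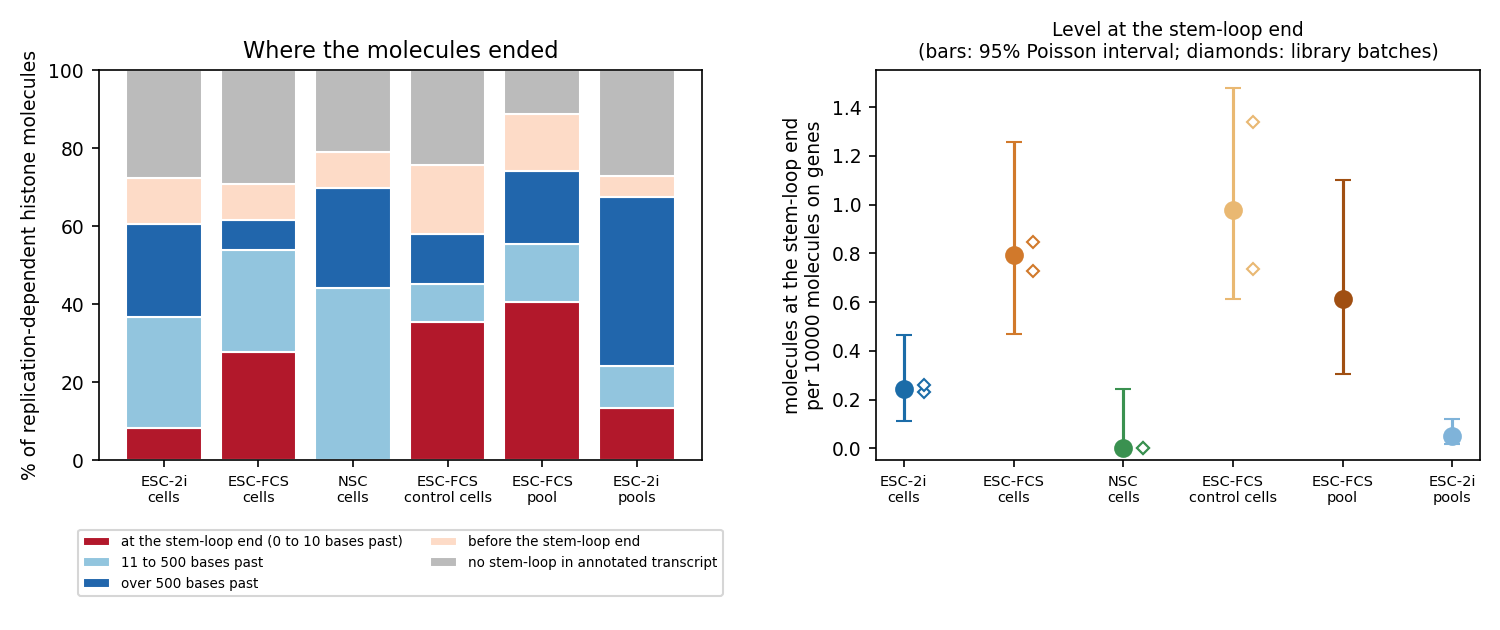
Left, the share of RD histone molecules by where they ended relative to the stem-loop, in percent, for the 3 populations, the ESC-FCS control cells and the pools. Right, the level of molecules 0 to 10 bases past the stem-loop per 10000 molecules on genes, with 95% Poisson intervals and open diamonds for library batches. The ESC-FCS libraries sit between 0.614 and 0.976, the ESC-2i libraries at 0.244 and 0.0513 and NSC at 0.

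Over all libraries the stem-loop end was reached by 66 molecules of 16 RD genes and by all 5 histone classes: 4 H2A genes (29 molecules), 3 H3 genes (16), 4 H2B genes (14), 2 H4 genes (4) and 3 H1 genes (3). Hist1h2ag gave 13 of them, Hist1h2ae 9, Hist1h3c 8 and Hist1h2bj 5. None of the 21 sites shared its last 60 bases with another RD gene's transcript. The 15 bases after each of 20 sites held 3 to 7 A. At RD sites elsewhere with at least 2 molecules this count ran from 2 in Hist1h4f to 12 in Hist1h2ao. It was 11 after the main Hist1h2bc site. Whether priming on encoded A gave some of those ends was not tested. In H2afx, 0 of its 1284 molecules over all libraries ended at its stem-loop, an upper limit of 0.287%. That limit rests mostly on the ESC-2i pools, which held 998 of them. Among ESC libraries those pools had the lowest level of RD stem-loop-end molecules. The ESC-FCS cells, control cells and pool held 97, 34 and 29 H2afx molecules, which allow only a wider limit there.

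Few RD genes gave more than single molecules. RD genes with a molecule numbered 32 in ESC-2i, 26 in ESC-FCS but 14 in NSC, in order of depth. Over the 3 populations 5 RD genes had at least 10 molecules, and they held 31 of 43 RD molecules in NSC, 51 of 109 in ESC-2i and 19 of 65 in ESC-FCS. Hist1h1c reached 10 only with its NSC molecules and Hist1h4c only with those of ESC-2i, so these counts are a description of the genes chosen and not a comparison of populations.

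Hist1h4i, an H4 gene, gave 12 molecules in NSC, 9 in ESC-2i and 6 in ESC-FCS, and 25 of these 27 lay at the 1 site printed above. Its level in NSC was 0.791 per 10000 (0.409 to 1.38), 3.23 times that in ESC-2i (1.25 to 8.69), with batches of 0.502 and 1.11 in NSC above 0.287 and 0.206 in ESC-2i. It was the 1 RD gene with enough molecules for the comparison of NSC with ESC-2i. It passed the fold there, where 17.7% of 4800 genes passed upward. It reached the minimum count only with its NSC molecules, 12 beside 9 in ESC-2i. Its passing was thus not independent of that minimum and is a description. Against ESC-FCS Hist1h4i had too few molecules. Control cells held Hist1h4i at 0.0887, the ESC-FCS pool at 0.1675 and the 2 ESC-2i pools together at 0.0205.

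Hist1h1c, which encodes the linker histone H1.2, had 9 molecules in NSC, 7 in ESC-2i and 1 in ESC-FCS, 16 of 17 at the site 833 bases past its stem-loop. Its NSC level was 0.593 (0.271 to 1.13) against 0.190 (0.0764 to 0.392) in ESC-2i and 0.0441 (0.00112 to 0.246) in ESC-FCS, and 7 of the 9 NSC molecules came from batch 2. The control cells (0.222) and ESC-FCS pool (0.223) lay nearer to ESC-2i. Hist3h2a, an H2A gene, had 14 molecules in ESC-2i and 5 in each other population, all 5 of NSC in batch 1, and the H2B gene Hist1h2bc 11 in ESC-2i and 5 in each other population. Neither differed beyond counting error in level between NSC and ESC-2i, with ratios of 0.866 (0.244 to 2.55) and 1.10 (0.3004 to 3.44). Control cells held 0 Hist3h2a and 3 Hist1h2bc molecules, the ESC-FCS pool 0 and 1, and the ESC-2i pools together 1 and 2.

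Hist1h4c, another H4 gene, had 10 molecules in ESC-2i, 2 in ESC-FCS but 0 in NSC, which allows a level of up to 0.243 in NSC. Its main site, at chr13:23692980 on the minus strand, lay 5109 bases past its stem-loop and outside its annotated transcripts, close to the Hist1h2bc site on the other strand. Sites up to 20 kb past a gene had been given to it, so the source of these molecules is uncertain. Control cells held 4 Hist1h4c molecules, the ESC-FCS pool 0 and the ESC-2i pools 1 and 3. The remaining 36 detected RD genes had 1 to 9 molecules each, 13 of them 1, and 29 had none. Of 13 RD genes whose last 60 annotated bases matched another RD gene, 7 were among those 29.

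**Figure D2:**
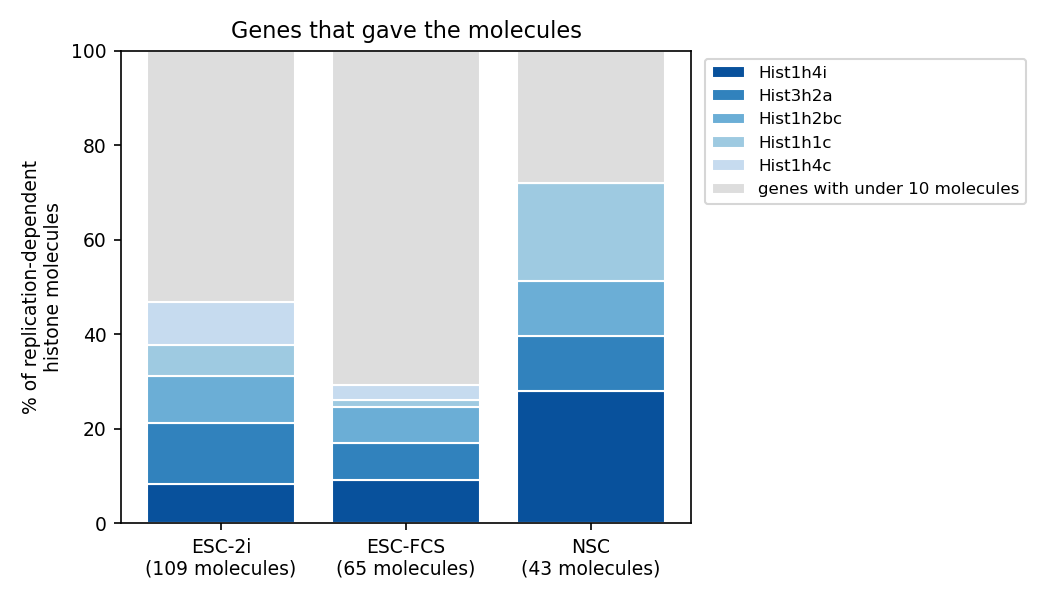
The share of RD histone molecules from each of the 5 genes with at least 10 molecules and from all others, in percent, in the 3 populations. The 5 genes, chosen by their count over these cells, make up 46.8% in ESC-2i, 29.2% in ESC-FCS but 72.1% in NSC.

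By the authors' site classes, 54 of the 217 RD molecules, or 24.9% (19.3 to 31.2), lay within 10 bases of an annotated transcript end, against 62.9% (60.9 to 64.8) in the variants and 57.4% in all other genes. A further 49.8% lay up to 200 bases from one, 14.3% elsewhere in the last exon and 11.1% downstream of the gene. The populations did not differ in the first share beyond counting error, at 23.9% (16.2 to 33.0) in ESC-2i, compared with 34.9% (21.0 to 50.9) in NSC and 20.0% (11.1 to 31.8) in ESC-FCS. Up to the stop codon lay 18 RD molecules, 11 of them seen by 1 read each. Of 25 RD sites with at least 2 molecules and annotated sequence, 9 or 36% (18.0 to 57.5) had a poly(A) hexamer, against 61.9% (61.2 to 62.5) of 21926 sites of other genes. The 8 such sites downstream of a stem-loop had one in 6 cases.

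Variant histones were far more abundant than RD histones, and 4 of the 8 differed past the fold between NSC and both ESC populations. The 8 variants summed to 27.0 per 10000 (25.3 to 28.7) in ESC-2i, compared with 41.1 (38.0 to 44.5) in NSC and 35.7 (33.3 to 38.3) in ESC-FCS, but the 2 NSC batches were at 34.7 and 48.2. The control cells stood at 27.3, the ESC-FCS pool at 18.9 and the ESC-2i pools at 21.4 and 18.9. In NSC against ESC-2i, 3 of 8 variants were past the fold upward (H1f0, H1fx and H2afy) and 1 downward (H2afx), where 17.7% and 22.9% of all genes were. Their median log2 ratio was 0.81, beside -0.05 for all 4800 genes. The same 4 passed in NSC against ESC-FCS, where 19.4% of 3598 genes passed upward and 17.3% downward. Per spike-in molecule H1fx and H2afy were short of 2-fold in that comparison, at 0.933 and 1.10. H1f0 had 13 molecules in ESC-2i and 2 in ESC-FCS, and H1fx had 6 and 12. Both reached the minimum of 20 only with their NSC molecules, 20 and 19. Their passing was thus not independent of that minimum and is a description. Of the 6 variants with enough molecules, 0 passed in ESC-FCS against ESC-2i, where 7.29% passed upward and 13.6% downward. That count holds per molecule on genes. Per spike-in molecule the ratios of these 6 were about 2-fold or more, with 9775 spike-in molecules in ESC-FCS and 32348 in ESC-2i. Which scale is nearer to the content of a cell was not tested.

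**Figure D3:**
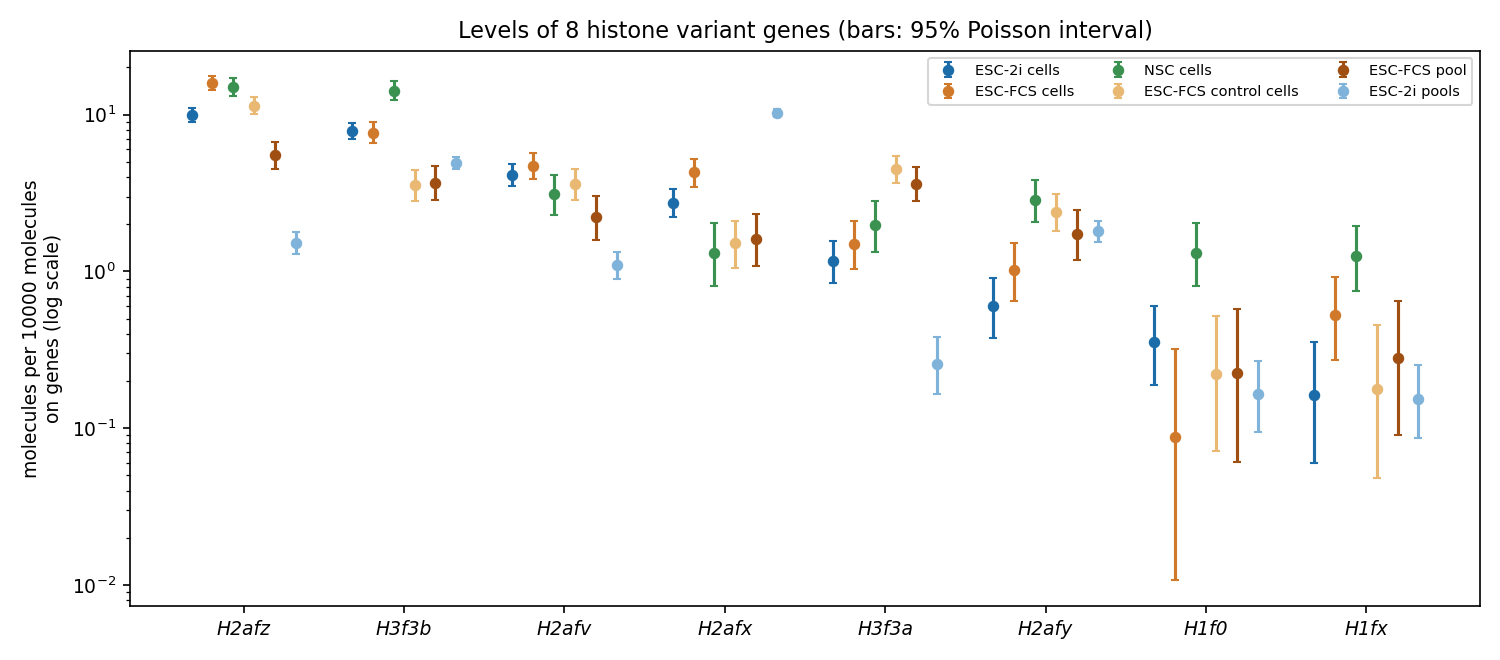
Levels of the 8 variant genes in molecules per 10000 molecules on genes, on a log axis with 95% Poisson intervals, in the 3 populations, the control cells and the pools. H3f3b and H1f0 are higher in NSC than in every group of ESC libraries, at 14.2 and 1.32, though per spike-in molecule H3f3b in NSC was 0.731 times ESC-FCS, while H2afx spans 1.51 to 10.2 among the ESC groups.

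The linker histone variants were low in ESCs and higher in NSC, except H1fx against ESC-FCS per spike-in molecule. H1f0 encodes H1.0, a linker histone known to accumulate in differentiated and slowly dividing cells. It had 20 molecules in NSC, 13 in ESC-2i and 2 in ESC-FCS, levels of 1.32 (0.805 to 2.04), 0.353 (0.188 to 0.604) and 0.0883 (0.0107 to 0.319). The NSC level was 3.73 times that of ESC-2i (1.77 to 8.17) and 14.9 times that of ESC-FCS (3.63 to 132). Without library batch 1 these ratios were 2.15 and 5.35, and without batch 2 the first was 8.75. Control cells and pools lay at 0.162 to 0.223, so NSC stood above all 5 other groups of libraries with intervals apart. H1fx, encoding H1.10, had 19 molecules in NSC, 6 in ESC-2i and 12 in ESC-FCS, and its NSC level of 1.25 (0.754 to 1.95) was 7.68 times that of ESC-2i (2.95 to 23.5) and 2.36 times that of ESC-FCS (1.09 to 5.34). The last ratio was 1.504 in reads and 0.933 per spike-in molecule, both short of 2-fold. Control cells and pools held H1fx at 0.146 to 0.279. In H1fx 35.1% of molecules were seen by 1 read each, and in H1f0 22.9%.

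H2afy encodes macroH2A1, a large H2A variant linked to silent chromatin. Its levels were 0.597 (0.374 to 0.905) in ESC-2i, compared with 2.83 (2.05 to 3.82) in NSC and 1.02 (0.644 to 1.52) in ESC-FCS. NSC stood at 4.74 times ESC-2i (2.77 to 8.32) and 2.79 times ESC-FCS (1.64 to 4.85), but 1.10 times ESC-FCS per spike-in molecule. The control cells, however, reached 2.39 (1.80 to 3.12) and the ESC-2i pools 1.36 and 2.24, so some ESC libraries overlapped NSC.

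The H3.3 genes H3f3a and H3f3b encode the same protein. H3f3b was the more abundant in the 3 populations, at 7.82 (6.94 to 8.78) in ESC-2i, compared with 14.2 (12.4 to 16.3) in NSC and 7.68 (6.58 to 8.91) in ESC-FCS. NSC stood at 1.82 times ESC-2i (1.52 to 2.18) and 1.85 times ESC-FCS (1.51 to 2.28). That is short of the 2-fold rule, though all batches lay apart: 11.8 and 16.9 in NSC, 7.16 to 8.10 in the ESC batches. Control cells and pools were lower still, at 3.55 to 5.58. Per spike-in molecule the ratio of NSC to ESC-FCS was 0.731. For H3f3a that ratio was 1.32, and 0.520 per spike-in molecule. H3f3a lay, in the order ESC-2i, ESC-FCS, NSC, at 1.17 (0.845 to 1.57), 1.501 (1.04 to 2.10) and 1.98 (1.33 to 2.82) and did not separate by batch, and the control cells, at 4.48 (3.65 to 5.44), were 2.98 times the main ESC-FCS cells (2.01 to 4.54). The ESC-FCS pool held H3f3a at 3.63 and the ESC-2i pools at 0.313 and 0.202.

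H2afz, encoding H2A.Z, which marks promoters and enhancers, had the highest level of the members in the cells of ESC-2i and ESC-FCS, while in NSC its interval overlapped that of H3f3b. All 33 used cells of each ESC population, 39 of 41 NSC cells and 40 of 48 control cells had a molecule. Its level was 9.99 (9.00 to 11.1) in ESC-2i, compared with 15.1 (13.2 to 17.2) in NSC and 15.9 (14.3 to 17.6) in ESC-FCS, and NSC stood at 0.9495 times ESC-FCS (0.801 to 1.12). ESC-FCS lay 1.59 times above ESC-2i (1.37 to 1.84), with batches of 17.2 and 14.1 against 9.86 and 10.1. In the control cells it was 11.4 (10.0 to 12.9), for the pool of ESC-FCS 5.53 and for those of ESC-2i 1.98 and 1.07, where H2afx and H3f3b were above it. H2afv, which encodes the second H2A.Z protein, had levels, in the order ESC-2i, ESC-FCS, NSC, of 4.13 (3.498 to 4.84), 4.72 (3.87 to 5.71) and 3.10 (2.28 to 4.12). NSC stood at 0.656 times ESC-FCS (0.455 to 0.932), short of the 2-fold rule. Control cells held H2afv at 3.59, the ESC-FCS pool at 2.23 and the ESC-2i pools at 1.81 and 0.404. The NSC level lay within the range of the ESC libraries.

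H2afx was lower in NSC, with 20 molecules and 1.32 per 10000 (0.805 to 2.04), against 101 and 2.74 (2.23 to 3.33) in ESC-2i and 97 and 4.28 (3.47 to 5.22) in ESC-FCS. NSC stood at 0.480 times ESC-2i (0.282 to 0.782) and 0.308 times ESC-FCS (0.1801 to 0.502), with batches of 1.76 and 0.833 in NSC, 2.98 and 2.53 in ESC-2i, and 5.30 and 2.91 in ESC-FCS. Against ESC-2i the ratio was 0.525 over cells with at least 2000 molecules and 0.589 without library batch 2, both short of the 2-fold rule. The ESC libraries themselves were far apart. The control cells had 1.51 (1.04 to 2.11), near NSC, while the ESC-2i pools had 11.4 and 9.10, together 3.74 times the ESC-2i cells (3.04 to 4.63).

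In ESC-2i the order of levels was H2afz, H3f3b, H2afv, H2afx and then H3f3a, whose interval overlapped that of H2afy. H2afy overlapped H1f0, and H1f0 overlapped H1fx. In NSC the intervals of H2afz and H3f3b overlapped, and from H2afv down each gene overlapped its neighbour.

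Several variants used alternative 3′ ends, and these windows show the last 30 bases up to the upstream site of H2afz, the 2 main sites of H3f3b and the main site of H2afx, with the hexamer in capitals.
H2afz upstream, chr3:137866793-137866822, plus strand: gataagctcAATAAAggtcatatcccaaac
H3f3b upstream, chr11:116022859-116022888, minus strand: ttcaacatttttaaATTAAAtgttttacat
H3f3b downstream, chr11:116022295-116022324, minus strand: ttgactaaatttacaAATAAActtgtttat
H2afx, chr9:44336040-44336069, plus strand: tttATTAAAggatcgtttggttttgttttt
Of 28 variant sites with at least 2 molecules, 13 or 46.4% (27.5 to 66.1) had a hexamer, and those 13 held 75.8% of the molecules. The main sites of H2afv, H3f3a and H2afy had none.

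The 2 H2afz sites, the upstream one 375 bases past the stop codon, were used in different proportions in the 3 populations. The downstream site held 101 of 367 molecules in ESC-2i, or 27.5% (23.0 to 32.4), 161 of 357 in ESC-FCS, or 45.1% (39.9 to 50.4), and 126 of 229 in NSC, or 55.0% (48.3 to 61.6). Batches were close, at 26.3% and 28.6%, 45.9% and 43.7%, and 52.7% and 56.6%. A gene was counted when this share differed by at least 10 percentage points with batches apart and at least 20 molecules in each population. H2afz passed upward in NSC against ESC-2i, where 11.6% of 997 genes passed upward and 2.61% downward, and in ESC-FCS against ESC-2i, where 7.07% of 1585 passed upward and 4.16% downward. It was just short of the threshold in NSC against ESC-FCS, at 9.92 points, where 8.42% and 3.37% of 891 genes passed.

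The other libraries did not keep that order. The control cells had 31.1% (25.5 to 37.2) at the H2afz downstream site and passed downward against the main ESC-FCS cells, in a comparison where 9.63% of 1361 genes passed upward and 5.14% downward. Their batches were at 24.2% and 43.5%, the ESC-FCS pool at 30.3% (21.5 to 40.4) and the ESC-2i pools at 69.7% and 88.5%. In reads rather than molecules the shares were 39.1%, 58.1% and 67.3% in ESC-2i, ESC-FCS and NSC, and over all cells the downstream site had 15.5 reads per molecule and the upstream site 9.46.

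**Figure D4:**
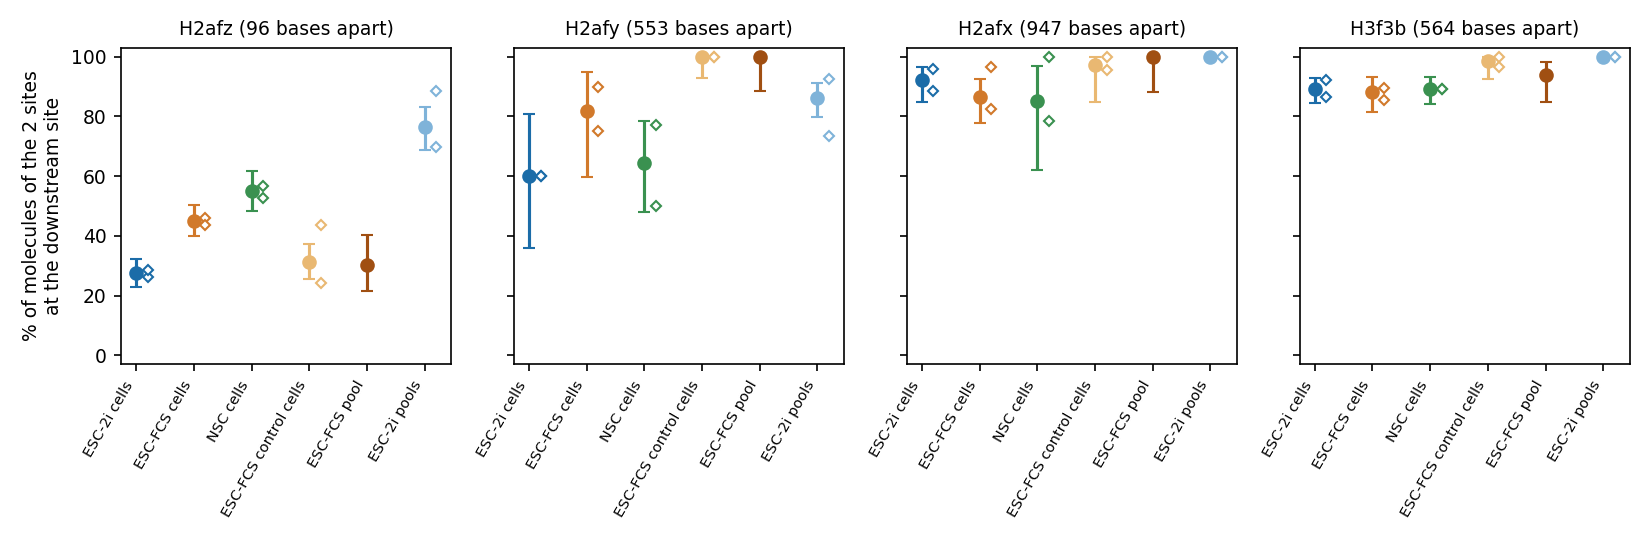
The share of molecules at the downstream of the 2 main sites of H2afz, H2afy, H2afx and H3f3b, in percent with exact 95% binomial intervals, in the 3 populations, the control cells and the pools, with open diamonds for library batches or single pools. H2afz runs from 27.5% to 55.0% among the populations and up to 88.5% in a pool. H3f3b stays near 89% of its 2 main sites in the populations, a share that leaves out its further sites.

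Of the other variants with enough molecules in each population, H2afy passed upward in ESC-FCS against ESC-2i, with 81.8% (59.7 to 94.8) of 22 molecules at its downstream site against 60.0% (36.1 to 80.9) of 20. It also passed upward in the control cells, where 49 of 49 molecules were downstream. The 15 bases after its upstream site held 11 A. H3f3b had 89.1%, 88.3% and 89.2% downstream in ESC-2i, ESC-FCS and NSC, and 98.6% (92.5 to 100.0) in the control cells, where it passed upward. These shares count only its main upstream and downstream sites. With all sites counted, the downstream one held 80.6% (74.6 to 85.6) of NSC molecules of H3f3b. For ESC-FCS that value was 64.9% (57.4 to 72.0), with batches of 74.3% and 50.7%, and for ESC-2i it was 73.6% (68.1 to 78.6). The intervals of NSC and ESC-FCS did not overlap. H3f3b had further sites 37 and 346 bases past the stop codon. The first held 12.8% (9.21 to 17.3) of H3f3b molecules in ESC-2i, 8.62% in ESC-FCS, with 3.70% (1.61 to 7.17) in NSC. The second held 13.2% (8.57 to 19.2) in ESC-FCS, with batches of 8.57% and 20.3%, 2.43% in ESC-2i and 1.85% in NSC, and 0 of 80 in the control cells.

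H2afx ended mainly 814 bases past its stem-loop. A second position, 71 bases before the end of the stop codon and thus in the coding part, gave 3 molecules in NSC, 8 in ESC-2i and 13 in ESC-FCS, but these 24 molecules rested on 24 reads, 1 read each, against 13.5 reads per molecule at the main site. It held 0 of 983 molecules in the ESC-2i pools. In H1f0 the site 1190 bases past the stop codon held 11 of 19 molecules in NSC, 57.9% (33.5 to 79.7), and 3 of 12 in ESC-2i, 25.0% (5.49 to 57.2), which overlap.

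H2afz and H2afx varied between ESC-2i cells by more than Poisson counting. Dispersion was taken as the Pearson variance of molecules around each cell's depth, which is 1 for Poisson counts. In ESC-2i it was 2.63 for H2afz and 2.22 for H2afx, above 97.7% and 96.5% of 3977 genes averaging 0.5 or more molecules, whose median was 1.11. H3f3b stood at 0.952 there, below the median. In NSC the order differed, with 2.37 for H3f3b and 2.14 for H2afz, above 95.6% and 93.7% of 1378 genes. The compared genes were not matched for mean count. In ESC-2i that mean was 11.2 molecules per cell for H2afz, 3.06 for H2afx and 8.73 for H3f3b. How far abundance set these ranks was not tested. H2afz ran from 2 to 35 molecules in an ESC-2i cell (median 10) and from 2.43 to 25.3 per 10000, and in NSC from 0 to 43.7. Within single batches H2afz dispersion was as low as 0.690 in ESC-FCS batch 2 and 1.35 in NSC batch 1, beside 1.74 and 2.14 over both batches.

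**Figure D5:**
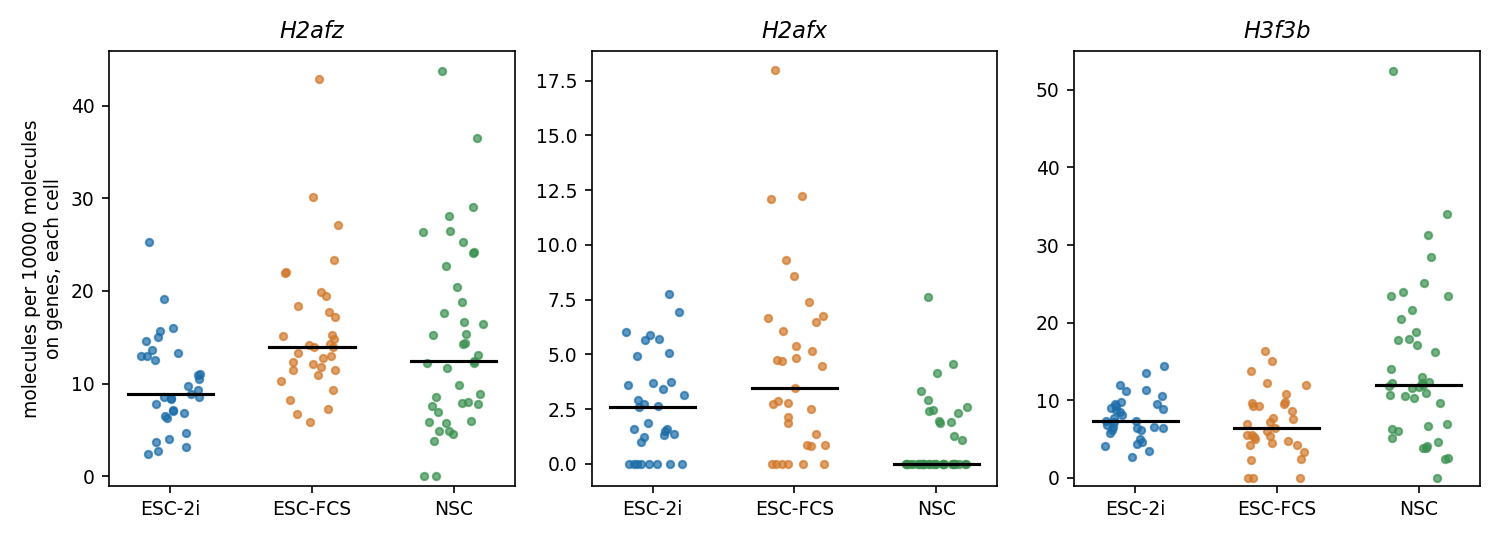
Levels of H2afz, H2afx and H3f3b in each cell, as molecules per 10000 molecules on genes, in ESC-2i, ESC-FCS and NSC, with the median as a line. H2afz spans 2.43 to 25.3 in ESC-2i and 0 to 43.7 in NSC.

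Across cells H2afx and genes of G2 and mitosis had positive correlations in each population. Pearson's r between the H2afx level and the sum of 20 such genes was 0.693 over 33 ESC-FCS cells, 0.375 over 33 ESC-2i cells and 0.422 over 41 NSC cells, and Spearman's rho was 0.650, 0.541 and 0.316. For H2afz the rho was 0.024 in ESC-FCS, 0.463 in ESC-2i and 0.481 in NSC. Both quantities share each cell's library and depth, so these values are descriptions.

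Genes around histone supply were read beside the members. The S phase list of 25 genes summed to 43.3 per 10000 in ESC-2i, 48.9 in ESC-FCS but 17.8 in NSC, and the G2 and mitosis list of 20 genes to 15.6, 26.7 and 6.06 in that order. In NSC against ESC-2i, 13 of 22 S phase genes with enough molecules were past the fold downward and 0 upward, and 8 of 13 G2 and mitosis genes were downward and 0 upward, with median log2 ratios of -1.39 and -1.78. Of all genes 22.9% were downward there and 17.7% upward. Against ESC-FCS the counts were 16 of 19 and 12 of 14 downward, beside 17.3% of all genes. Uhrf1, which maintains DNA methylation at forks, had 156 molecules in ESC-2i and 7 in NSC and was 9.19 times lower. Rpa2, which binds single-stranded DNA, had 33 and 1, Gins2, a part of the replicative helicase, 38 and 3, and Ccnb1, which encodes cyclin B1, 57 and 1. Tpx2 had 42 and 2, Ccna2 34 and 2, and Hmmr 21 and 2.

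Of the genes for histone 3′ processing and transcription, 4 of 22 were past the fold upward in NSC against ESC-2i and 3 downward, near or below the 17.7% and 22.9% of all genes, with a median log2 ratio of 0.28 beside -0.05 for all genes. The downward ones were Cstf1, a subunit of the cleavage stimulation factor, from 30 molecules to 1, Mif4gd, which encodes an SLBP-interacting protein, from 58 to 3, and the S phase transcription factor gene E2f1, from 27 to 2. Nfyc, a subunit of a CCAAT-binding factor, was 2.63 times higher. Slbp itself, the stem-loop binding protein, had 4, 9 and 5 molecules in NSC, ESC-FCS and ESC-2i, too few to compare. In ESC-FCS against ESC-2i, 1 of 26 was upward and 0 downward, beside 7.29% and 13.6% of all genes.

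Of the histone chaperones and exchange factors, 2 of 25 were upward and 5 downward in NSC against ESC-2i, again no more than the 17.7% and 22.9% of all genes, with a median log2 ratio of -0.20. Hjurp, the chaperone of centromeric H3, had 42 molecules in ESC-2i and 2 in NSC, and Chaf1b, a subunit of the S phase assembly factor CAF-1, 34 and 3. Ipo4, an importin for H3 and H4, was 5.09 times higher at 4.15 per 10000 (3.19 to 5.31). Anp32e, a chaperone that removes H2A.Z, was 3.96 times higher in NSC than in ESC-2i and 2.14 times higher in ESC-FCS than in ESC-2i, past the fold in both. Against ESC-FCS 1 of 22 was upward and 6 downward in NSC, where 19.4% and 17.3% of all genes were.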

How the data were processed

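The authors mapped 3′ end reads to GRCm38 with GSNAP, merged nearby ends into polyadenylation sites, removed ends next to encoded A stretches, and deposited counts of molecules and of reads per site, cell and site class, as well as counts of molecules per gene. HTSeq and R 3.0.2 are named in the submitters' processing notes. Positions were found to count from 0 and are printed plus 1. Antisense, intergenic and spike-in sites were left out of levels. Cells in the deposited gene table with at least 1000 molecules on genes were used, which left out 37 cells holding 40 member molecules. Control cells and pools were used whole. No doublet caller was run, as cells were sorted into wells. A site of a control cell or pool was given to a site of the main cells within 12 bases. Sequences came from GENCODE M21 transcripts of the same build, and sites beyond these have none. Intervals are exact Poisson (levels), conditional binomial (ratios) and Clopper-Pearson (shares), at 95%. The variants, each RD gene with at least 10 molecules, Slbp and up to 4 genes per list with the largest change past the fold between NSC and ESC-2i were named. Members and lists were chosen with earlier results of these data known. The fold rule and intervals were tried only on simulated Poisson counts, without the extra spread between cells or libraries seen in these data. That trial cannot show how often the rule passes genes here without a difference between populations. Analysis used Python with numpy, scipy and pandas. Depth, 1077 to 21038 molecules per cell, limits genes with few molecules to wide intervals. The sequence at 1 further site is not reported here.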

Additional observations from a re-analysis of the deposited data

How the results depend on the processing

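No paired analysis was possible because each population was 1 culture and no test between populations was run. Of 530 values recomputed under alternatives, 196 belonged to the main comparisons and 334 to single genes or sites. Of these, 162 and 285 stayed close to the main value. Close meant within its interval or, for counts of genes past the fold and for dispersions, within a factor of 1.5. Per ERCC spike-in molecule, the RD histone ratio was 0.390 for NSC to ESC-FCS and 2.00 for ESC-FCS to ESC-2i, and the variant ratio was 1.24 for NSC to ESC-2i, 0.454 for NSC to ESC-FCS and 2.73 for ESC-FCS to ESC-2i. Of the gene ratios past the fold, that of H1fx in NSC to ESC-FCS turned direction, at 0.933, and of those short of it H3f3a (0.520) and H3f3b (0.731) in the same comparison and H3f3b in ESC-FCS to ESC-2i (2.02) also crossed 1. Without library batch 1 the variant level was 33.2 per 10000 in ESC-FCS and 48.2 in NSC, and without batch 2 it was 34.7 in NSC. The variant ratio of NSC to ESC-2i was then 1.79 and 1.29, and that of NSC to ESC-FCS 1.45 and 0.925. In reads the NSC variant level was 37.9, and the H2afz downstream share 67.3% in NSC, 58.1% in ESC-FCS and 39.1% in ESC-2i. With a minimum of 10 or 50 molecules, 1466 or 257 genes were past the fold upward and 1765 or 423 downward in NSC against ESC-2i, 1335 or 190 and 1144 or 194 in NSC against ESC-FCS, and 703 or 107 and 1168 or 212 in ESC-FCS against ESC-2i, where a fold of 1.5 gave 760 and 1077. Thinned to 2000 molecules, 43.4% of ESC-2i cells had an RD molecule. Alternatives chosen after seeing the data were these: without molecules of 1 read each, the RD level was 2.33 in ESC-2i and 2.12 in ESC-FCS and the variant level 29.0 in ESC-2i, and without the cell with most stem-loop-end molecules in each population, their ratio of ESC-FCS to ESC-2i was 3.55. Leaving out Hist1h4c beyond 500 bases was also chosen then. The cause of these shifts was not tested. With 1 culture per population, intervals cover counting error only, and few RD molecules limit any comparison of single RD genes.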
